A study of Mus musculus with 2 samples.

Results

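Expression of 36 cell cycle genes was compared across the immune cells of a mouse glioma, 15 genes of S phase and 21 genes of mitosis, out of 31253 genes in the deposited count matrices. The members were found by gene symbol in both matrices, and all 36 were present. The S phase genes were Pcna, Mcm2, Mcm3, Mcm4, Mcm5, Mcm6, Mcm7, Tyms, Dut, Tk1, Hells, Uhrf1, Pclaf, Rrm1 and Rrm2. The mitosis genes were Mki67, Top2a, Birc5, Cdk1, Ccna2, Ccnb1, Ccnb2, Ube2c, Cenpf, Cenpe, Prc1, Cdca3, Cdca8, Bub1, Aurka, Aurkb, Plk1, Tpx2, Nusap1, Kif11 and Cdc20. Both libraries held CD45+ cells from the brains of C57BL/6 mice that carried intracranial tumours grown from GL261 cells, a mouse glioma line. The mice of the PBS library, whose treatment label reads untreated, were given PBS by gavage, and those of the ibudilast library were given ibudilast, a phosphodiesterase inhibitor, at 20 mg/kg. Both were dosed 5 times a week for 2 weeks. There was 1 library per group and the number of mice behind each was not given, so each ratio compares 2 libraries, not 2 treatments, and no test was made.

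A cell that enters S phase has loaded the MCM helicase onto its DNA and then copies its genome with the help of the sliding clamp PCNA and a supply of deoxynucleotides. Genes for these steps are switched on around the entry into S phase under E2F transcription factors. Genes for chromosome condensation, the spindle and the exit from mitosis peak later, in G2 and mitosis, many of them under the DREAM and MuvB complexes, which bind a promoter element called the CHR. Tumour-infiltrating T cells are known to divide in the tumour, while monocytes that arrive from the blood are mostly out of cycle and neutrophils no longer divide.

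The promoters of the members carried the sequence elements of these programmes to different extents. RefSeq promoter sequences on the GRCm38.p6 build, from 250 bases before to 50 bases after the start, were matched for 32 of the 36 members, 14 of S phase and 18 of mitosis. Tpx2, Mcm4, Aurkb and Ccna2 were not matched. An E2F word (TTTGGCGC, TTTCGCGC, TTTCCCGC or TTTGCCGC, on either strand) lay in 6 of 14 S phase promoters and 1 of 18 mitosis promoters, beside 2.32% of all 27025 promoters. The CHR word TTTGAA, on either strand, lay in 13 of 18 mitosis promoters, 1 of 14 S phase promoters and 18.1% of all promoters. All 13 of those mitosis promoters also held the CCAAT word, a pairing found in 7.12% of all promoters. The CCAAT word by itself was frequent in both lists. It lay in 10 of 14 S phase promoters, 16 of 18 mitosis promoters and 37.9% of all promoters. A match is a description of the letters and not a binding site. Promoters of 6 members that recur in the results are printed, with these words in capitals. Those of Mcm3 and Mcm6 show the E2F words, and those of Top2a, Mki67 and Ccnb2 show CHR words. Each of these also shows 2 or more CCAAT words. The Pcna promoter is shown because the gene recurs below. It held 1 CCAAT word and neither of the others, as did that of Rrm2. Those of Dut, Tyms and Tk1 held none of these words. Only 1 start was used per gene. The Dut window began at chr2:125247265, inside the gene, whose first base is 125247190, so bases upstream of that gene were not searched. The printed promoter window of Mcm3 lies at chr1:20820263-20820562, that of Mcm6 at chr1:128359656-128359955 and that of Pcna at chr2:132253131-132253430. The window of Top2a lies at chr11:99024140-99024439, that of Mki67 at chr7:135716330-135716629 and that of Ccnb2 at chr9:70421505-70421804. All are on the minus strand.
Mcm3: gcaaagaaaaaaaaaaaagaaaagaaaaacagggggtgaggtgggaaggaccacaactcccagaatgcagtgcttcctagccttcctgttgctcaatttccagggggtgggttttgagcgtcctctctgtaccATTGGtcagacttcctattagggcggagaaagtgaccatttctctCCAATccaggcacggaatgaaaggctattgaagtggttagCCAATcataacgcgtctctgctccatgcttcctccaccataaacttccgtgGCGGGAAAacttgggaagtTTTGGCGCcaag
Mcm6: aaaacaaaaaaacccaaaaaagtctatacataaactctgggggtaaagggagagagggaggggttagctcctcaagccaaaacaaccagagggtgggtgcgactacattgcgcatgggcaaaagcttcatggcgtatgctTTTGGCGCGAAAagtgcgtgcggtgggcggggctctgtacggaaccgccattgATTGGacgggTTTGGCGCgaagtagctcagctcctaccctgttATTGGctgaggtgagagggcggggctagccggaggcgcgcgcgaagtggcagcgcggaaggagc
Pcna: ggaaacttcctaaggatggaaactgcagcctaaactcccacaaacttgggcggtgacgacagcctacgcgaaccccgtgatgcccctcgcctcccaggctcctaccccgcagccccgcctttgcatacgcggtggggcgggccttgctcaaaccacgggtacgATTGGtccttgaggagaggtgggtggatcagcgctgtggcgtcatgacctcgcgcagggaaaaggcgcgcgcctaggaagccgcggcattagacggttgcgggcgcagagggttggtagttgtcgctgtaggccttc
Top2a: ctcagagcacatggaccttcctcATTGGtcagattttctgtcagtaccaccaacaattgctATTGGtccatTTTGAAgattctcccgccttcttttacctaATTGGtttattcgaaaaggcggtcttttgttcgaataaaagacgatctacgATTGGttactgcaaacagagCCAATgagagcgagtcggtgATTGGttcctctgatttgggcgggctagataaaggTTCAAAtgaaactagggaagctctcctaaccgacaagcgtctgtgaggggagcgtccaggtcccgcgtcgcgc
Mki67: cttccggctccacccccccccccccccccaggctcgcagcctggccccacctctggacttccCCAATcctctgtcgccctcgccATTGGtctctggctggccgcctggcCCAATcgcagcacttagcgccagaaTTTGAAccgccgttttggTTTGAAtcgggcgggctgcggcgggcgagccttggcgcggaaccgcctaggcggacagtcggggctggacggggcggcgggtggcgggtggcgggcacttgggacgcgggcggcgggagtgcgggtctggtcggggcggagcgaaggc
Ccnb2: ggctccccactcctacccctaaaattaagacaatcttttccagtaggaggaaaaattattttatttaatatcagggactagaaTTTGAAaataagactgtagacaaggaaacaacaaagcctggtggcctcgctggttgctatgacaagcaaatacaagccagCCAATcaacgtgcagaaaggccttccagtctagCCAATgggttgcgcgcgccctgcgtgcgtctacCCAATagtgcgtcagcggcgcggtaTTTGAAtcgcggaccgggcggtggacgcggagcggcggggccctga

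The PBS library held 8968 barcodes and 119113794 UMIs (unique molecular identifiers, each counting 1 captured RNA molecule), and the ibudilast library 8483 barcodes and 82196922 UMIs. After filtering, 8155 and 7079 cells were kept, with a median of 12234 and 8267 UMIs per cell. Members accounted for 156592 and 107864 UMIs in the same order. Cells were put in classes by lineage markers, none of which is a member. For example, Cd3e stood at 623 and 560 CPM (UMIs of the gene or list per 1000000 UMIs of the cells summed) in the CD8 T cells of the PBS and ibudilast libraries, against 3.04 and 6.74 in macrophages. The labels call the cells tumor-infiltrating lymphocytes, but macrophages were the largest class, with 3576 and 1795 cells. RNA of other cells was present in every class: C1qa, a macrophage gene, stood at 8352 and 7836 CPM in macrophages, and still at 546 and 592 in CD8 T cells and 884 and 638 in neutrophils. Barcodes that passed the gates of more than 1 lineage, 1221 and 1153 of them, were kept apart. The libraries shared 19 barcode sequences.

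The summed level of each list, in CPM, was highest in T cell classes among the immune classes in both libraries, and low in monocytes, migratory and plasmacytoid dendritic cells and neutrophils. The S phase list stood at 2070 CPM in regulatory T cells with PBS and 1420 with ibudilast. In the same order it stood at 1635 and 1685 in CD8 T cells, 1310 and 1186 in conventional CD4 T cells and 1055 and 914 in type 1 conventional dendritic cells (cDC1). NK cells stood at 948 and 522, macrophages at 710 and 653, type 2 conventional dendritic cells (cDC2) at 666 and 526 and microglia at 536 and 419. The T cell classes were thus at least as high as cDC1, and the resident and recruited phagocytes lay between these and the monocytes. Monocytes stood at 182 and 209, migratory dendritic cells at 210 and 252 and plasmacytoid dendritic cells at 278 and 171. The mitosis list spread further, from 56.1 CPM in plasmacytoid dendritic cells to 1762 in regulatory T cells of the PBS library, and from 95.1 in B cells to 1604 in conventional CD4 T cells of the ibudilast library. Monocytes stood at 74.3 and 111 for mitosis. Neutrophils, which should lack both programmes, stood at 298 and 219 for S phase and 122 and 112 for mitosis, on 51 and 44 cells. Monocytes were not above the neutrophil level for either list in either library. Since bases are read only near the 3′ end, a UMI counts a molecule whatever its length.

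**Figure D1:**
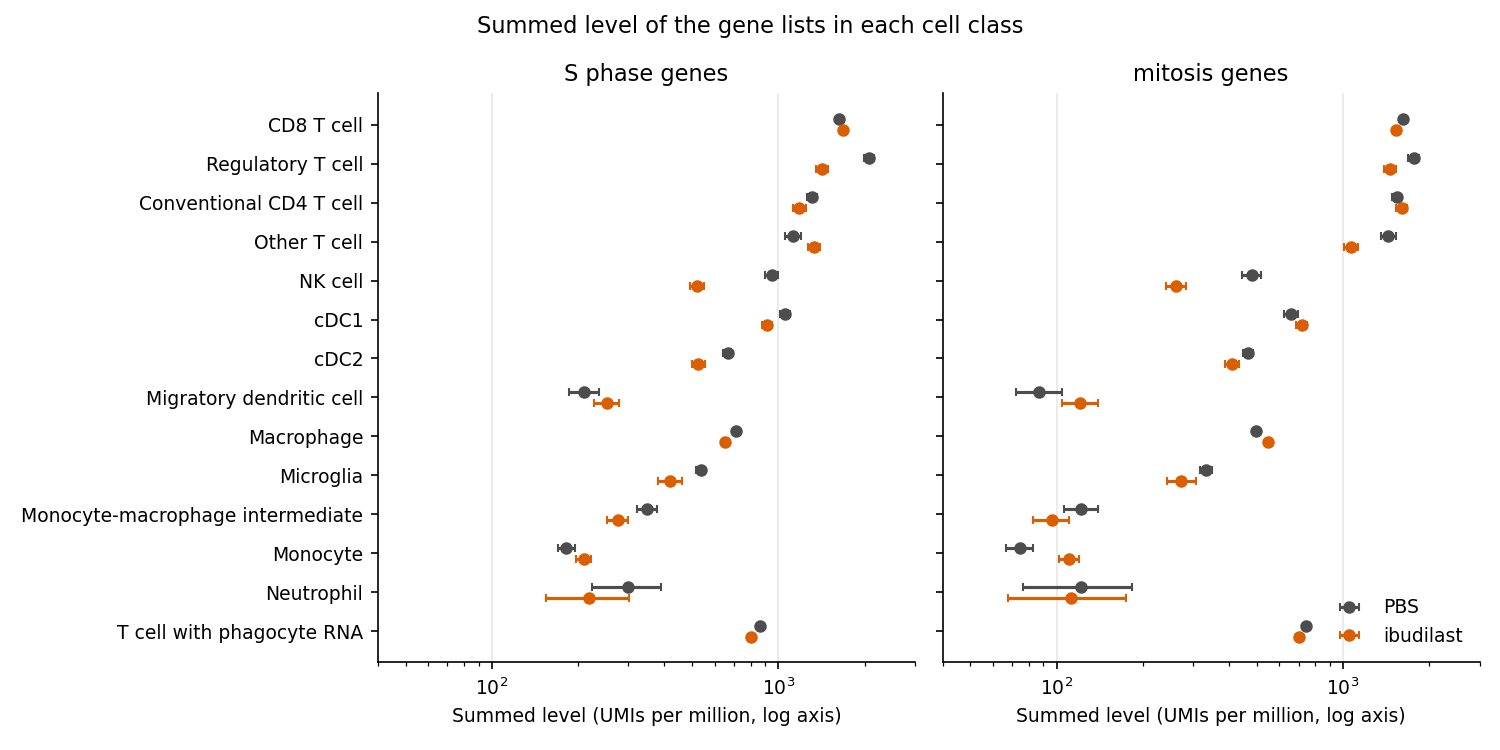
Summed level of the S phase genes (left) and mitosis genes (right) in each cell class, in CPM on a log axis; points are the PBS library (grey) and the ibudilast library (orange), and bars are exact 95% Poisson intervals, which cover counting error only. Of the classes plotted, which leave out some small classes such as B cells and plasmacytoid dendritic cells, the CD8, regulatory, conventional CD4 and other T cells sit highest in both panels, and monocytes, migratory dendritic cells, neutrophils and the cells between monocytes and macrophages sit lowest; the NK cell points are the most separated of the larger classes, at 948 and 522 for S phase.

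Single members followed the same order of classes. Top2a, the topoisomerase that untangles sister chromosomes, stood at 267 and 241 CPM in CD8 T cells of the PBS and ibudilast libraries, 74.3 and 71.7 in macrophages and 9.63 and 15.5 in monocytes. Mki67, which coats mitotic chromosomes and is the gene of the Ki-67 marker, stood at 173 and 142 in CD8 T cells, 52.1 and 60 in macrophages and 8.17 and 13.3 in monocytes. Ube2c, the ubiquitin-conjugating enzyme of the anaphase-promoting complex, stood at 201 and 193, 46.3 and 46.7, and 8.79 and 8.88 in the same 3 classes. Each of these genes was therefore many times higher in CD8 T cells than in monocytes in both libraries. Birc5 (survivin), of the chromosomal passenger complex, stood at 138 and 138 in CD8 T cells, 43.4 and 54.3 in macrophages and 3.35 and 10.6 in monocytes. Pclaf, which binds PCNA at the replication fork, stood at 288 and 274 in CD8 T cells, 81.5 and 87.0 in macrophages and 8.79 and 11.4 in monocytes. Dut, which removes dUTP before it can enter DNA, stood at 262 and 297, 57.6 and 46.1, and 8.59 and 9.91. Mcm3, a helicase subunit, stood at 102 and 98.7, 67.8 and 56.4, and 10.3 and 11.4. Pcna differed from these: it stood at 207 and 209 in CD8 T cells, 168 and 155 in macrophages and still 95.9 and 110 in monocytes. Pcna made up 52.6% and 52.5% of all S phase UMIs in monocytes (exact 95% intervals 49.3% to 56.0% and 49.7% to 55.4%), but 13.2% and 13% in T cells and 23.7% and 23.7% in macrophages. In neutrophils the Pcna part was 46.3% and 51.4%.

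All 15 S phase members were highest in regulatory T cells in the PBS library, whereas in the ibudilast library 10 of 15 were highest in CD8 T cells and 4 in regulatory T cells. Of the 21 mitosis members, 12 were highest in regulatory T cells with PBS and 11 in conventional CD4 T cells with ibudilast. The regulatory T cell class held 95 and 98 cells, of which the 5 richest held 54.9% and 53.5% of its mitosis UMIs. The conventional CD4 T cell class held 173 and 136 cells, of which the 5 richest held 43.6% and 53.3%. The counts of mitosis members therefore rested largely on the same few cells. The S phase to mitosis ratio of summed UMIs was near 1 in T cells (0.975 and 1.05), 1.42 and 1.20 in macrophages, 1.97 and 2.00 in NK cells and 2.45 and 1.89 in monocytes.

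Cells were also compared after each was thinned at random to 2000 UMIs, since deeper cells show more members. Thinning left out 356 and 609 shallower cells, and a cell was counted for a list when at least 2 of its 2000 UMIs came from it. Over all kept cells, those then counted for mitosis were the larger ones. Before thinning their median UMI count was 1.87 times that of cells with neither list with PBS and 2.16 times with ibudilast. This varied by class: 1.95 and 2.28 in T cells, 1.75 and 2.05 in macrophages, 3.21 and 1.13 in NK cells and 0.889 and 0.856 in monocytes. S phase cells made up 23.0% of the PBS library (1792 of 7799 cells) and 19.8% of the ibudilast library (1284 of 6470). Mitosis cells made up 9.86% (769) and 9.97% (645). Without thinning the shares were 70.2% and 60% for S phase and 37.1% and 31.5% for mitosis, and the mitosis share then appeared lower in the shallower ibudilast library, with a ratio of 0.848 in place of 1.01.

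At equal depth T cells had the largest shares of cells counted for each list among the immune lineages. These shares were 39.6% and 36.7% for S phase and 19% and 19.2% for mitosis. Of regulatory T cells, 26.3% and 21.9% were counted for mitosis, of CD8 T cells 19% and 20.3%, of conventional CD4 T cells 18.2% and 18.8%, and of other T cells 13.3% and 12.9%. The exact 95% intervals with PBS ran from 17.8% to 36.4% in regulatory T cells and from 7.26% to 21.6% in other T cells, and those with ibudilast from 14.1% to 31.5% and from 7.56% to 20.1%. They overlapped, and the order of the T cell classes was not tested. Of cDC1, 13.6% and 13.9% were counted for mitosis, and of macrophages 9.25% and 10.4%. Of monocytes, 1.33% and 2.07% were counted, 8 of 603 and 16 of 772 cells. The neutrophil share, read as background, was 4.88% and 6.06% for mitosis (2 of 41 and 2 of 33 cells) and 14.6% and 6.06% for S phase, on cells with a median of 2758 and 2538 UMIs. The monocyte shares for mitosis were not above this background. Those for S phase, 5.64% and 6.35%, were under it with PBS and close to it with ibudilast. With so few neutrophils the background is only roughly known. Without Pcna, the S phase share was 1.66% and 2.07% of monocytes and 32.5% and 30.9% of T cells. It was then 17.0% and 12.5% of macrophages and 17.2% and 14.1% of all kept cells.

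**Figure D2:**
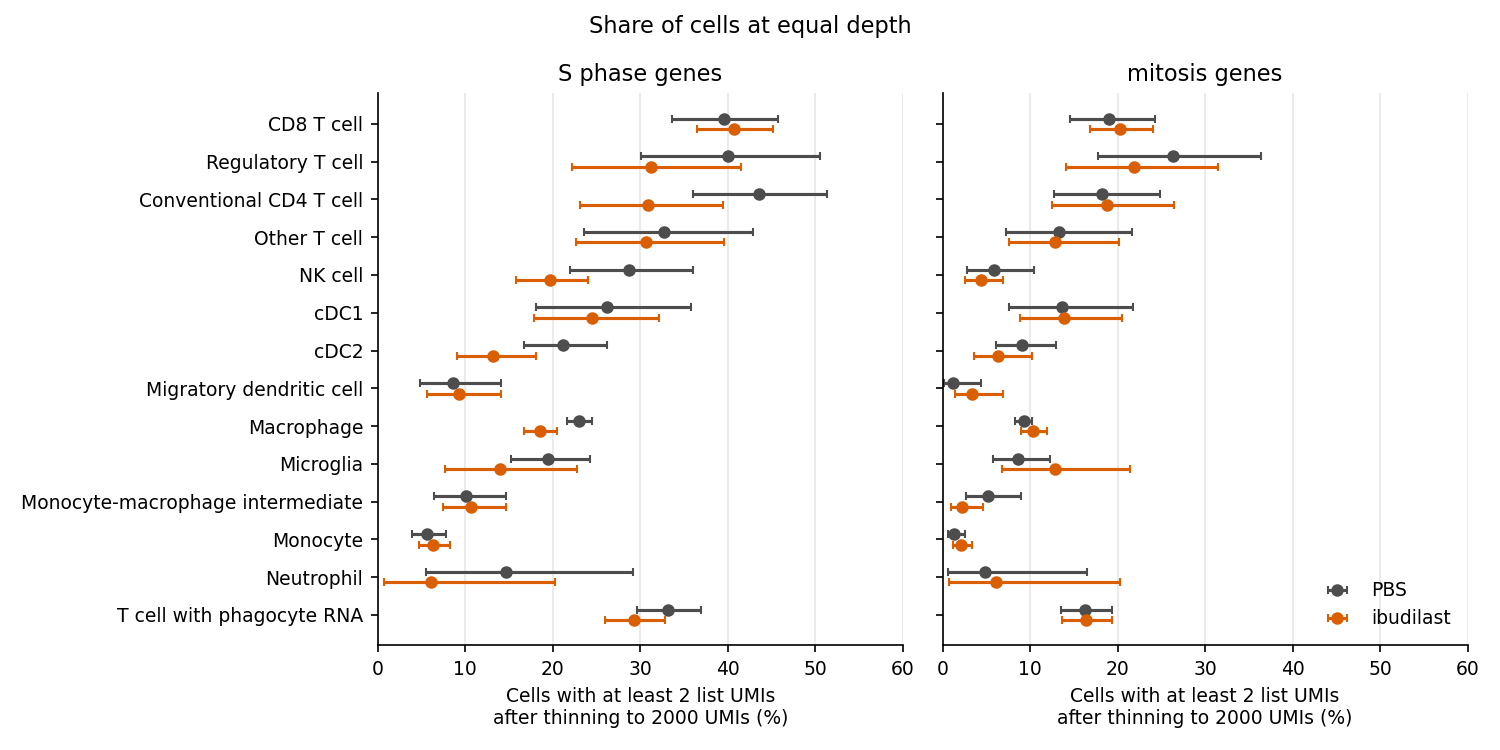
Share of cells with at least 2 UMIs of the S phase genes (left) or mitosis genes (right) after thinning every cell to 2000 UMIs; points are the PBS library (grey) and the ibudilast library (orange), with exact 95% binomial intervals. The T cell classes lie between 30.6% and 43.5% for S phase, and the macrophage intervals for S phase do not overlap between libraries (23.0% and 18.5%).

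Most mitosis cells were also counted for S phase, while most S phase cells were not counted for mitosis. Of the mitosis cells, 64.2% in the PBS library (exact 95% interval 60.7% to 67.6%) and 60.5% in the ibudilast library (56.6% to 64.3%) also passed for S phase. Of the S phase cells, 27.6% and 30.4% also passed for mitosis. The cells counted for S phase alone made up 16.6% and 13.8% of all cells, both lists 6.33% and 6.03%, and mitosis alone 3.53% and 3.94%.

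**Figure D3:**
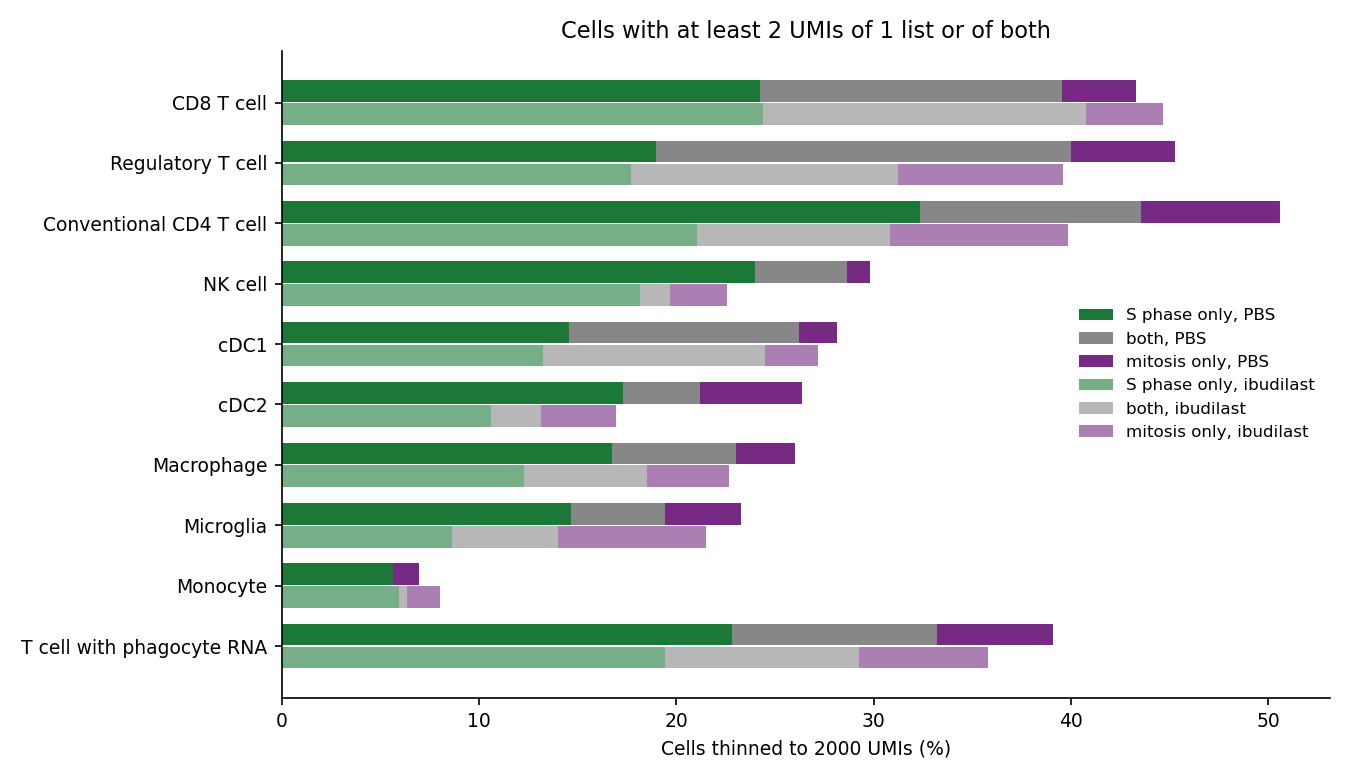
Cells thinned to 2000 UMIs that had at least 2 UMIs of the S phase genes alone (green), of both lists (grey) or of the mitosis genes alone (purple), as a percentage of each class; the upper, darker bar is the PBS library and the lower, paler bar the ibudilast library. In macrophages the green part is 16.7% and 12.3% and the grey part 6.26% and 6.24%.

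The members differed in how closely their UMIs kept to cells in cycle. For each gene, a thinned cell was taken as in cycle when it held at least 3 UMIs of the other 35 members, and as out of cycle when it held 0. Among mitosis genes the median share of UMIs that lay in cells in cycle was 80.3% with PBS and 77.9% with ibudilast, and in cells out of cycle 8.61% and 8.91%. Kif11, the motor that pushes the spindle poles apart, was the most restricted in the PBS library (88.7% in cycle). Ccna2, the cyclin of late S phase and G2, was the most restricted in the ibudilast library (87.4%). S phase genes kept less closely to such cells, with medians of 57.0% and 56.3% in cycle and 16.9% and 19.1% out of cycle. Within that list Pclaf (85.5% and 83.7%) and Rrm2, the S phase subunit of ribonucleotide reductase (83.5% and 83.8%), resembled the mitosis genes. The helicase subunits lay lower: Mcm3 had 46.7% and 49.0% of its UMIs in cells in cycle, Mcm4 43.9% and 46.3% and Mcm6 44.7% and 43.0%. Pcna was lowest of all 36, with 32.5% and 29.1% in cycle and 39.5% and 40.1% in cells that held no UMI of any other member. Its level in such cells was 109 and 100 CPM, beside 299 and 282 in cells in cycle. Pcna UMIs alone therefore did not separate cells in cycle from others in these libraries.

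**Figure D4:**
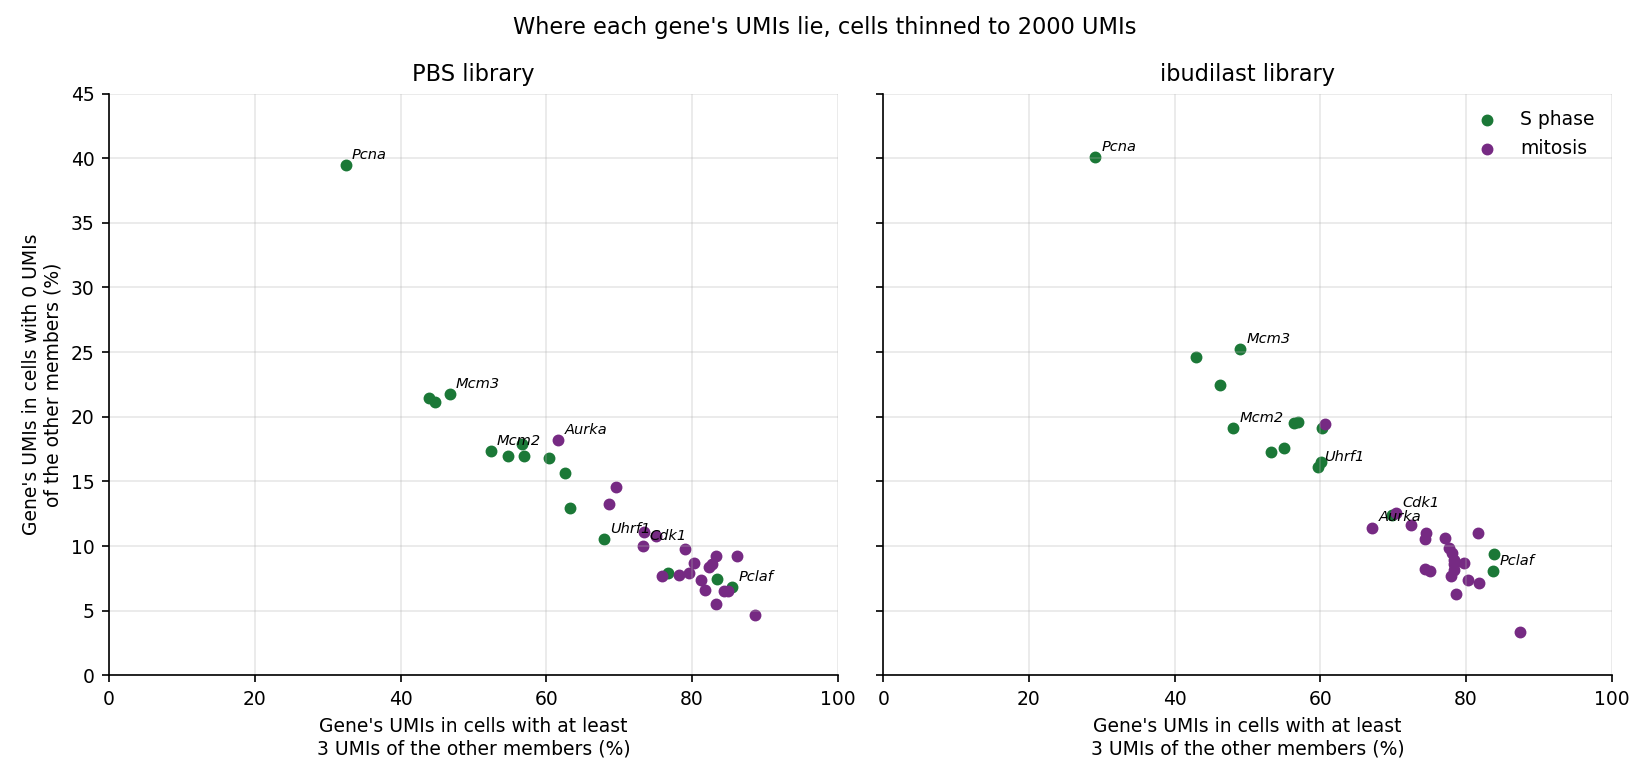
For each of the 36 genes, the percentage of its UMIs in cells with at least 3 UMIs of the other members (horizontal axis) against the percentage in cells with none (vertical axis), after thinning to 2000 UMIs, in the PBS library (left) and the ibudilast library (right). Mitosis genes (purple) gather at the lower right, S phase genes (green) spread to the left, and Pcna stands alone at 39.5% and 40.1% on the vertical axis.

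Between the libraries, the summed level of neither list differed by much over all kept cells. S phase stood at 746 CPM with PBS and 738 with ibudilast (ratio 0.989, exact 95% interval 0.979 to 0.999), and mitosis at 587 and 613 (1.04, 1.03 to 1.06). All kept cells include barcodes low in leukocyte markers, described below. These held 5693 of the 68930 mitosis UMIs with PBS and 2276 of the 48952 with ibudilast, and levels without them were not computed. All intervals of levels, ratios and shares cover counting error only, and those of levels are too narrow where a few cells hold most UMIs of a list. A gene was called lower where its ratio of ibudilast to PBS was under 0.8 and higher where it was above the inverse of 0.8. None of the 36 members was called in either direction over all kept cells, while of 13930 genes with at least 50 UMIs 21.2% were higher and 6.09% lower. The members with most UMIs had ratios of 0.928 for Pcna, 1.11 for Pclaf, 1.14 for Dut, 0.825 for Mcm3, 1.01 for Top2a, 1.04 for Mki67, 1.03 for Ube2c and 1.14 for Birc5. The mixture of classes behind these values differed: macrophages made up 42.1% of the mitosis cells of the PBS library (324 of 769) but 27.3% in the ibudilast library (176 of 645). T cells made up 15.6% and 25.7%, and CD8 T cells alone 6.63% and 16.1%. These shares followed the makeup of the libraries, in which macrophages were 44.9% and 26.3% of thinned cells and T cells 8.09% and 13.4%.

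In macrophages the summed S phase level and the share of S phase cells were lower in the ibudilast library, and the summed mitosis level was not, with level differences smaller than the fold used to call a gene. S phase stood at 710 and 653 CPM (ratio 0.920, 0.903 to 0.939), and the share of S phase cells at equal depth was 23.0% (805 of 3501) and 18.5% (315 of 1700), a ratio of 0.806 (0.705 to 0.919). Mitosis stood at 498 and 546 (1.10, 1.07 to 1.12), with 9.25% and 10.4% of cells (1.12, 0.926 to 1.35). The cells counted for S phase alone carried the difference in shares, at 16.7% and 12.3% (0.735, 0.624 to 0.862), while cells with both lists were 6.26% and 6.24%. Macrophages had a median of 14377 UMIs with PBS and 9732 with ibudilast, and the part of this gap in the level ratios was not tested beyond thinning. The S phase level ratio lay between 0.831 and 0.925 under every alternative computed. The mitosis ratio turned to 0.908 when classes came from clusters, so its direction depends on the gating.

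The S phase genes of macrophages differed among themselves. All 6 subunits of the MCM helicase, which unwinds DNA at the fork, had ratios under 1, and their sum stood at 250 and 209 CPM (0.837, 0.809 to 0.866). Mcm2 was lowest at 27.3 and 21.4 (0.781, 0.701 to 0.869), followed by Mcm4 at 28.7 and 22.5 (0.783, 0.705 to 0.869), and Mcm7 was nearest to 1 at 0.921. Uhrf1, which guides DNA methylation behind the fork, had a ratio that rounds to 0.80 from below, and Hells, a chromatin remodeller with a role in the same process, 0.838. The 5 genes of nucleotide supply summed to 166 and 166 CPM but split: Dut was at 0.802, whereas Tk1, thymidine kinase, was at 22.4 and 28.4 (1.27, 1.15 to 1.40), Rrm2 at 1.12 and Tyms, thymidylate synthase, at 1.11. The roles were grouped after the values were seen. By the thresholds 3 S phase members were lower (Mcm2, Mcm4 and Uhrf1) and 1 was higher (Tk1), of 15, beside 5.42% lower and 11.8% higher among 11521 genes. Mcm6 at 0.801 and Dut at 0.802 lay just outside the lower threshold. The median log2 ratio of the S phase list was -0.19, that of the mitosis list 0.16 and that of all genes 0.04.

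Of the 21 mitosis genes in macrophages, 3 were higher and none lower, a share of higher genes near the 11.8% among all genes tested. Ccnb2, a B-type cyclin, stood at 12.3 and 16.1 CPM (1.31, 1.15 to 1.49), Nusap1, which bundles spindle microtubules, at 12.7 and 16.0 (1.26, 1.10 to 1.44) and Birc5 at 43.4 and 54.3 (1.251, 1.16 to 1.34). The 4 cyclin and Cdk1 genes all had ratios above 1, as did all 6 spindle and kinetochore genes, which summed to 110 and 127 CPM (1.15, 1.10 to 1.21). The kinases Aurka, Aurkb, Plk1 and Bub1 summed to 41.5 and 42.2 (1.02, 0.940 to 1.10). Top2a was at 0.965 (0.909 to 1.02), Ube2c at 1.01 and Mki67 at 1.15 (1.08 to 1.23).

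**Figure D5:**
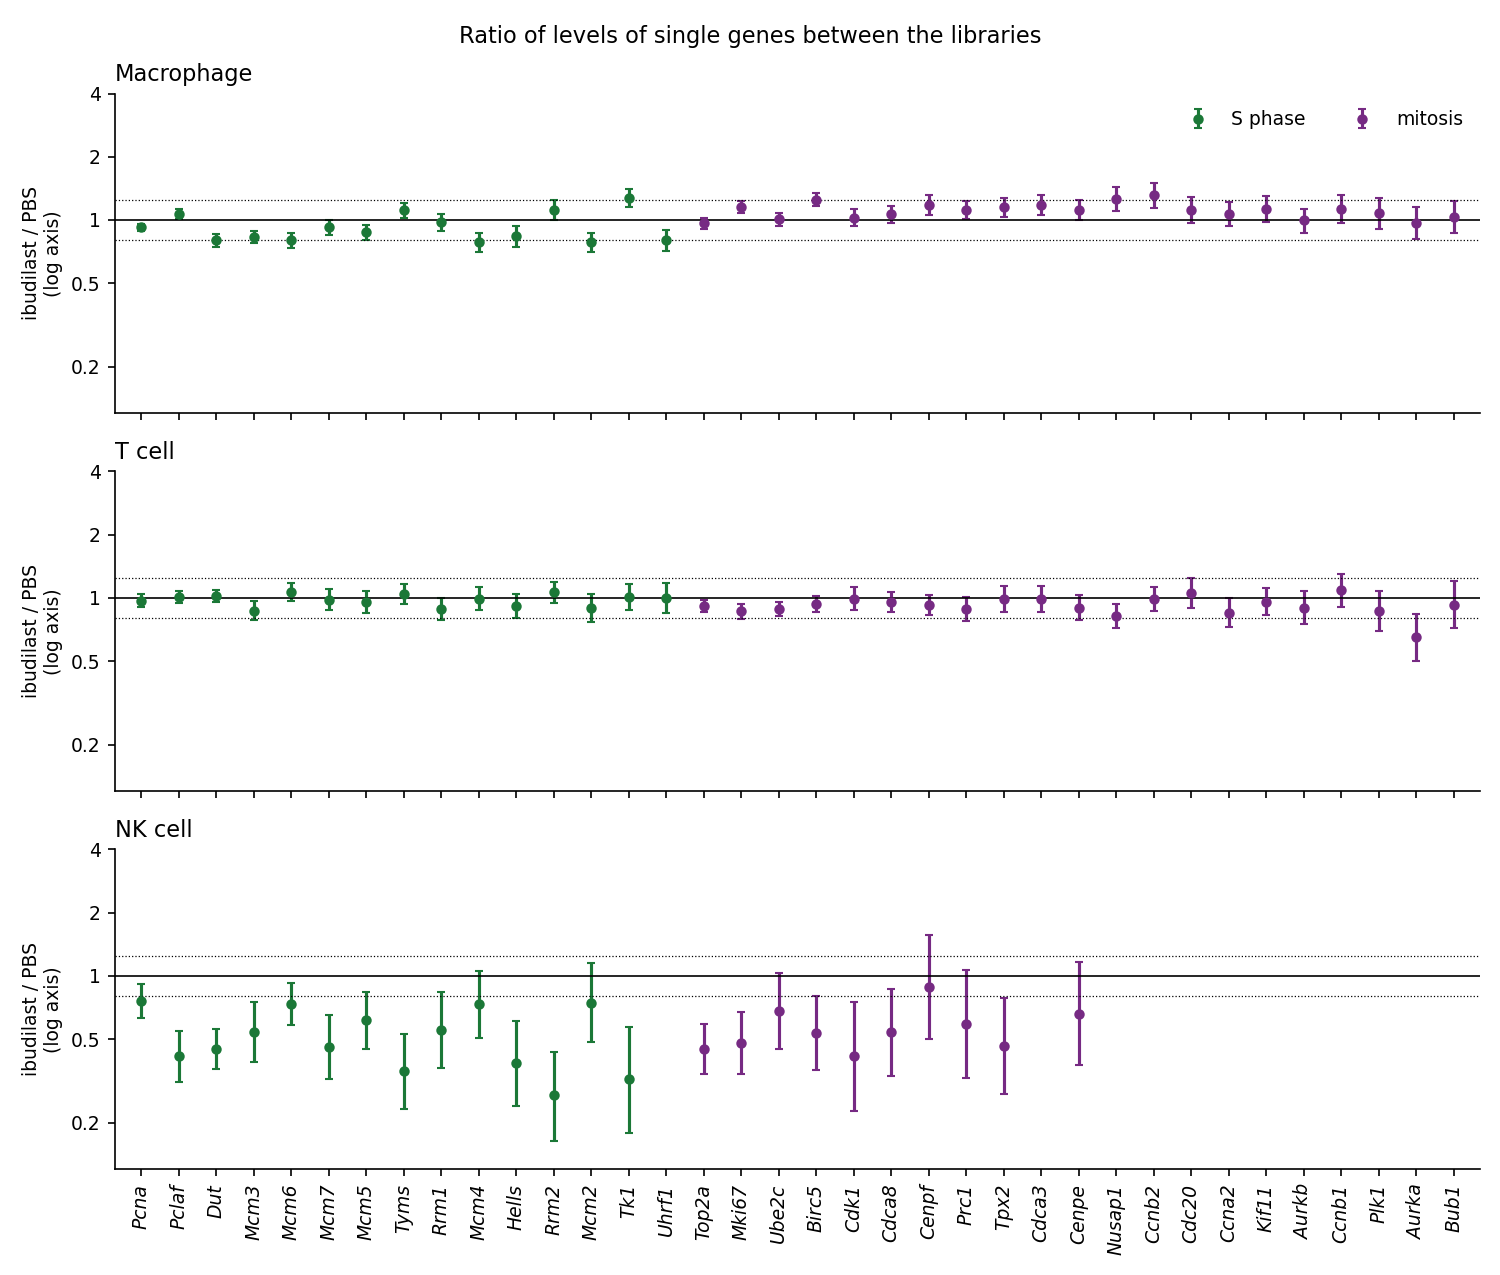
Ratio of the level in the ibudilast library to that in the PBS library for each member with at least 50 UMIs in macrophages (top), T cells (middle) and NK cells (bottom), on a log axis; points are ratios, bars exact 95% intervals for counting error, and dotted lines mark 0.8 and its inverse. In macrophages the S phase genes (green, 0.781 to 1.27) and mitosis genes (purple, 0.965 to 1.31) overlap, and the 6 Mcm genes lie under 1. All plotted members lie under 1 in NK cells, and T cell ratios stay near 1 apart from Aurka at 0.650.

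In T cells both lists were close between libraries. S phase stood at 1562 and 1542 CPM (0.987, 0.962 to 1.01) and mitosis at 1602 and 1472 (0.919, 0.896 to 0.943), on 647 and 891 cells with like median depths of 7977 and 8012 UMIs. The mitosis ratio was 1.03 with each cell weighted alike and 1.23 with classes from clusters, so no direction is given to it. Of 36 members 1 was lower, Aurka, the kinase of spindle poles, at 19.4 and 12.6 CPM (0.650, 0.501 to 0.843), and none was higher. Among 9982 genes 7.78% were lower and 7.67% higher. Aurka rested on 124 and 119 UMIs, and its ratio was 1.28 when cells were thinned. Nusap1 was next lowest at 0.819, and Ccnb1 (1.09) and Rrm2 (1.06) were highest. In barcodes with T cell and phagocyte RNA together, 677 and 695 of them, S phase stood at 863 and 805 and mitosis at 740 and 702. There Aurka was at 0.632 and Ccna2 at 0.788, and Kif11 (1.16) and Ccnb2 (1.11) were highest.

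Regulatory T cells had a lower S phase ratio than CD8 or conventional CD4 T cells, a difference that was not tested. The S phase list stood at 2070 CPM with PBS and 1420 with ibudilast (0.686, 0.643 to 0.731), and the MCM genes at 653 and 435 (0.667, 0.594 to 0.748), with all 6 under 1. The S phase level ratio lay between 0.629 and 0.715 under every alternative computed. However, 8 of 95 and 7 of 98 cells held 50% of these UMIs, and the share of S phase cells at equal depth was 40% and 31.2% (0.781, 0.467 to 1.29), a difference within counting error. The mitosis list stood at 1762 and 1458, with 54.9% and 53.5% of its UMIs in 5 cells of each library. CD8 T cells showed 1635 and 1685 for S phase (1.03, 0.995 to 1.07). In conventional CD4 T cells the S phase share was 43.5% and 30.8% (0.708, 0.471 to 1.05) beside 18.2% and 18.8% for mitosis.

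NK cells had the lowest ratios of the larger classes for both lists. S phase stood at 948 and 522 CPM (0.550, 0.509 to 0.596) and mitosis at 481 and 261 (0.543, 0.485 to 0.607), on 171 and 397 cells. All 14 S phase members with at least 50 UMIs were lower, as were 9 of 10 mitosis members, beside 16.9% of 6461 genes. The median log2 ratio was -1.0 for S phase, -0.89 for mitosis and 0.02 for all genes. Rrm2 stood at 41.9 and 11.3 CPM (0.271, 0.164 to 0.436), Tk1 at 27.0 and 8.72 (0.323), Tyms at 48.3 and 17.0 (0.352) and Pclaf at 93.7 and 38.8 (0.414). Dut and Rrm1, the other genes of nucleotide supply, had ratios of 0.447 and 0.555. The MCM sum was nearer to 1, at 350 and 223 (0.637, 0.562 to 0.722), and Pcna was nearest of the S phase members tested, at 154 and 117 (0.759, 0.632 to 0.912). Top2a stood at 93.0 and 41.9 (0.450), Mki67 at 58.9 and 28.3 (0.481) and Cdk1, the kinase that drives entry into mitosis, at 22 and 9.16 (0.416). These NK genes were named after their values were seen.

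Few NK cells carried these UMIs. The 5 cells richest in mitosis UMIs held 73.0% of them with PBS and 61.0% with ibudilast, and without those 5 cells of each library the mitosis ratio was 0.747. At equal depth 10 of 171 and 17 of 386 NK cells were counted for mitosis, 5.85% and 4.40% (0.753, 0.326 to 1.84), and a difference in this share was not detectable. The S phase UMIs were spread wider, with 35.3% and 25.6% in the richest 5 cells, and the level ratio without them was 0.607. Without the 5 cells richest in both lists, 12 of 14 members were lower. The S phase share was 28.7% (49 of 171) and 19.7% (76 of 386), a ratio of 0.687 (0.474 to 1.0), and without Pcna 22.8% and 12.2% (0.534, 0.342 to 0.838). NK cells had a median of 6351 UMIs with PBS and 4708 with ibudilast. Ncr1, a defining NK gene, stood at 468 and 450.5 CPM, and C1qa at 549 and 566.

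In monocytes the mitosis list was low in both libraries, at 74.3 and 111 CPM (1.49, 1.30 to 1.70). Of 17 members with at least 50 UMIs 7 were higher, beside 11.4% of 8201 genes, led by Birc5 at 3.35 and 10.6 CPM (3.16, 1.80 to 5.87) and Prc1, which bundles the central spindle, at 2.93 and 6.83 (2.33, 1.24 to 4.64). Rrm1 (0.888) and Ube2c (1.01) were the lowest. The 5 richest monocytes held 27.3% and 43.9% of the mitosis UMIs, the ratio without them was 1.14, and without the 5 cells richest in both lists no member was higher. S phase stood at 182 and 209 (1.15, 1.05 to 1.253), of which Pcna was the larger part.

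Conventional dendritic cells and microglia had lower S phase levels in the ibudilast library. In cDC2 S phase stood at 666 and 526 CPM (0.790, 0.743 to 0.841) and 21.2% and 13.1% of cells (0.620, 0.391 to 0.966), with all 6 MCM genes under 1 and a sum of 260 and 181 (0.698, 0.629 to 0.774). The mitosis list of cDC2 stood at 465 and 409 (0.879), with 63.8% of the ibudilast UMIs in 5 cells. In cDC1 S phase stood at 1055 and 914 (0.866) and mitosis at 659 and 717 (1.09), but the S phase ratio was 1.04 with each cell weighted alike. In microglia S phase stood at 536 and 419 (0.783, 0.706 to 0.866) and mitosis at 333 and 273 (0.818, 0.719 to 0.929), but their median depth was 15310 and 6233 UMIs. Both microglia ratios passed 1 when each cell was weighted alike, at 1.16 and 1.49. Migratory dendritic cells, which have matured and are mostly out of cycle, stood at 210 and 252 for S phase and 86.9 and 121 for mitosis.

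Barcodes low in leukocyte markers, 136 and 228 of them with Ptprc, the gene of CD45, at 10.5 and 12.1 CPM, carried the mitosis list at 2388 and 986 CPM. Their 5 richest barcodes held 64.8% of the 5693 mitosis UMIs with PBS and 52.2% of the 2276 with ibudilast. They were left out of every immune class but counted among all kept cells.

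Other genes of the pathway, taken from lists drawn up beside the members, were counted in the same way. In macrophages 2 of 33 other replication factors were lower, near the 5.42% of all genes, and none was higher: Orc1, of the origin recognition complex, at 83 and 18 UMIs (0.581) and Cdca7, a partner of Hells, at 979 and 265 (0.725). Of 38 other kinetochore, spindle and cytokinesis genes 9 were higher, beside 11.8% of all genes, and none was lower. Highest were Aspm, a spindle pole gene, at 212 and 107 UMIs (1.35, 1.06 to 1.71), and Ttk, a spindle checkpoint kinase, at 162 and 80 (1.32, 0.998 to 1.74). Counts of these other lists were not recomputed with other gates, on which the direction of the macrophage mitosis level depended. Among the 16 genes of G1 cyclins, kinases and E2F factors, Myc was lower (0.692) and Ccnd3 higher (1.41). In NK cells 12 of 19 replication factors with at least 50 UMIs were lower and 1 higher, beside 16.9% lower and 21.3% higher among all genes. There 6 of 11 kinetochore and spindle genes were lower, with Spc24 at 38 and 19 UMIs (0.307). Of 13 cell cycle inhibitors and quiescence genes in NK cells 7 were higher and 3 lower, beside 21.3% and 16.9% of all genes, the lower share near that of all genes. The highest were Ccng2 at 22 and 62 UMIs (1.73) and Cdkn1a, a cyclin-dependent kinase inhibitor, at 97 and 257 (1.63). Klf2, a factor of resting lymphocytes, was next at 3173 and 7708 (1.49). The 3 lower genes were Ccng1 at 75 and 58 UMIs (0.475), Trp53 at 180 and 210 (0.717) and Rbl2 at 104 and 126 (0.744). In T cells none of these 38 kinetochore and spindle genes was higher and 7 were lower, beside 7.67% and 7.78% of all genes. The lowest was Cdc25c at 49 and 38 UMIs (0.525). These T cell counts were likewise not recomputed with classes from clusters, with which the T cell mitosis level changed direction.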

How the data were processed

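The deposited values are unnormalised UMI counts in 1 gene-by-barcode matrix for each of 2 libraries. Per the file headers, the authors ran Cell Ranger 6.1.1, on mm10, per the submitters' processing notes (10x 3′ V3.1 libraries, per the labels). Here cells with at least 300 genes, 500 UMIs and under 10% mitochondrial UMIs were kept. Cells were gated by lineage marker scores whose thresholds were set after seeing the data, and 727 and 620 cells lay within 0.05 of one. Barcodes passing 2 lineages were set apart, since Scrublet (scanpy 1.11.5) called 0 doublets in either library and so gave no usable threshold. Clusters for the alternative classes (Leiden, resolution 1.5) left out the members and other cell cycle genes. Levels are summed CPM with exact Poisson intervals, shares have exact Clopper-Pearson intervals and ratios exact conditional binomial intervals, all at 95% (scipy 1.17.1, seed 7). Intervals cover counting error only. Calculations were tested on simulated counts. Values are given in full for the 4 members of each list with most UMIs, and, in classes with at least 300 cells in each library, for the 2 highest and 2 lowest ratios among members with at least 50 UMIs, and at most 3 highest and 3 lowest genes of each other list. Members, lists and rules were chosen with earlier results of these data known. The markers Tcrg-C1, Tcrg-C2 and Ly6a2 were not matched.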

Additional observations from a re-analysis of the deposited data

Results flagged for a closer look

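The mitosis level ratio of ibudilast to PBS went opposite ways in 3 classes. It was 0.543 in NK cells (interval 0.485 to 0.607), 1.49 in monocytes (1.30 to 1.70) and 2.16 in plasmacytoid dendritic cells (1.47 to 3.21). The classes were picked because these intervals, of counting error only, lay wholly below 0.8 or wholly above its inverse, so that position is no further result. Without the 5 richest cells of each library the ratio was 0.747 in NK cells and 1.14 in monocytes. With 1 library per group the difference between classes was not tested. In plasmacytoid dendritic cells, which numbered 73 and 62, the list rested on 42 and 82 UMIs, 56.1 and 121 CPM, and 40.5% and 52.4% of these UMIs lay in 5 cells of each library. At equal depth 1 of 72 and 2 of 61 of those cells were counted for mitosis.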

How the results depend on the processing

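The values above were recomputed under alternatives for thinning, thresholds, cell filters, gates, doublets and scaling. Those that left out Pcna or the 5 cells richest in a list were chosen after seeing the data. The shares and level ratios in all kept cells, T cells, NK cells, monocytes and macrophages gave 224 alternative values, with the counts of members lower in NK cells and higher in monocytes. Of these, 171 stayed within the counting interval of the value reported (counts within 1.5 times), 47 moved outside it and 6 were labelled as reversed. That label was given only where the reported interval excluded 1. Other values that crossed 1, several of them listed below, are among the 171 or the 47. Counts of fewer than 5 members were left out of the 224. In macrophages 4 members were higher (0 to 6 over the alternatives) and 3 lower (0 to 9). In T cells 0 were higher (0 to 11) and 1 lower (0 to 5). For macrophages the S phase level ratio lay between 0.831 and 0.925 and the S phase share ratio between 0.666 and 0.916, and for NK cells the level ratios lay between 0.510 and 0.688 (S phase) and between 0.438 and 0.747 (mitosis), all under 1. The cause of each move was not tested. With at least 1 list UMI required, the S phase share ratio was 0.954 in all kept cells. With at least 3 required, the S phase share ratio was 0.443 in NK cells and 0.666 in macrophages, the mitosis share ratio was 0.316 in NK cells. Without thinning, the mitosis share ratio was 0.848 in all kept cells and 0.815 in macrophages. With thinning to 1000 UMIs, the mitosis share ratio was 0.587 in monocytes. With classes from Leiden clusters, the mitosis share ratio was 0.891 in macrophages, the S phase level ratio was 1.09 in T cells, 0.666 in NK cells, 0.991 in monocytes, 0.836 in macrophages and 1.05 in microglia, the mitosis level ratio was 1.23 in T cells, 0.908 in macrophages, 1.04 in CD8 T cells, 1.04 in regulatory T cells and 1.48 in microglia, the ratio of Nusap1 was 1.14 in T cells. With each cell weighted alike, the S phase level ratio was 0.958 in all kept cells, 1.03 in T cells, 0.688 in NK cells, 0.882 in macrophages, 1.16 in microglia and 1.04 in cDC1, the mitosis level ratio was 1.16 in all kept cells, 1.03 in T cells, 0.634 in NK cells, 1.16 in monocytes, 1.19 in macrophages, 1.07 in CD8 T cells, 1.01 in regulatory T cells and 1.49 in microglia. From thinned cells, the S phase level ratio was 0.910 in all kept cells, 0.962 in T cells, 0.627 in NK cells, 1.04 in monocytes and 0.831 in macrophages, the mitosis level ratio was 1.03 in all kept cells, 0.979 in T cells, 1.91 in monocytes, 1.02 in CD8 T cells, 1.09 in regulatory T cells and 1.19 in microglia, the ratio of Pclaf was 0.998 in all kept cells, Dut 0.95 in all kept cells, Mki67 0.940 in all kept cells, Aurka 1.28 in T cells and Aurka 1.22 in T cells with phagocyte RNA. Scaled by the median gene, the S phase level ratio was 0.939 in all kept cells and 0.898 in macrophages, the mitosis level ratio was 0.992 in all kept cells and 1.07 in macrophages, the ratio of Mki67 was 0.985 in all kept cells. Without the 5 richest cells of each library, the S phase level ratio was 0.976 in all kept cells, 0.607 in NK cells and 0.896 in macrophages, the mitosis level ratio was 1.07 in all kept cells, 0.952 in T cells, 0.747 in NK cells, 1.14 in monocytes, 1.06 in macrophages and 1.06 in CD8 T cells. Without Pcna, the S phase level ratio was 1.01 in all kept cells. Without the 6% highest Scrublet scores, the S phase level ratio was 0.897 in macrophages, the mitosis level ratio was 1.01 in all kept cells. With the stricter cell filter, the mitosis level ratio was 0.438 in NK cells and 1.07 in macrophages, the ratio of Mki67 was 0.986 in all kept cells. With 1 more marker required, the mitosis level ratio was 1.02 in cDC2. In NK cells 12 of 12 members were lower at 100 UMIs or more, and 12 of 14 without the 5 cells richest in both lists. In monocytes 17 of 32 members were higher at 20 UMIs or more, 3 of 6 at 100 or more and 0 of 13 without the 5 richest cells. The median gene's log2 ratio was at most 0.07 in any class examined. Few cells limit the values in neutrophils (51 and 44 cells) and plasmacytoid dendritic cells (73 and 62). No paired analysis was possible because each group had 1 library, and for the same reason no library could be left out.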

Other observations

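B cells, 54 and 48 in number, held 136 and 89 S phase UMIs and 30 and 29 mitosis UMIs, levels of 483 and 292 and of 107 and 95.1 CPM in the PBS and ibudilast libraries. Mast cells or basophils, 73 and 33 in number, stood at 574 and 743 CPM for S phase and 476 and 601 for mitosis. Cells that passed neither the monocyte nor the macrophage gate but scored at least 0.12 for both, 239 and 326 in number, stood at 348 and 275 for S phase and 122 and 96.1 for mitosis, between monocytes and macrophages for S phase. Of the barcodes with the 6% highest Scrublet scores, 34.3% and 36.9% had at least 2 UMIs of either list at equal depth, beside 26.0% and 22.9% of the others.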
